A study of Rattus norvegicus with 3 samples.

Results

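The Bcl2 family genes Bcl2, Bcl2l1, Mcl1, Bcl2a1, Bax, Bak1, Bid, Bcl2l11, Bbc3 and Pmaip1 were examined in rat osteosarcoma, MFH and mesenchymal stem cells (MSCs). They were chosen by gene symbol, and every array probe whose RefSeq accession belonged to such a symbol was taken. Probes were found for 9 of the 10 genes, out of 13301 genes with a named probe on the array. No probe was matched to Pmaip1, which encodes the BH3-only protein Noxa, and it was not analysed here. The 9 genes had 13 probes and 40 spots on each array, and 7 of them were read by a single probe.

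COS1NR is an osteosarcoma line and MFH1NR a line of malignant fibrous histiocytoma (MFH), a pleomorphic soft tissue sarcoma. Both came from tumors that had been induced chemically with 4-HAQO in rats of the F344 strain. The MSCs came fresh from the femoral marrow of F344 rats of unstated age and number, were obtained by monolayer culture on plastic and were not sorted by surface markers. All cells were grown in serum-containing medium, and the MSC medium differed in its serum content. Each sarcoma type is represented by 1 cell line, and Cy3-labeled cRNA of each cell type was hybridized to 1 array. No difference could therefore be tested against a spread between cultures, and all differences below are given by their size.

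Proteins of the Bcl2 family decide whether the outer mitochondrial membrane is opened, the committing step of the intrinsic pathway of apoptosis. Bcl2, Bcl-xL (the main product of Bcl2l1), Mcl1 and Bcl2a1 hold the effectors Bax and Bak1 in check, and the BH3-only proteins Bid, Bim (Bcl2l11), Puma (Bbc3) and Noxa relieve that block or activate the effectors. Several members are controlled in large part after transcription, Mcl1 by rapid degradation and Bid by proteolytic cleavage, so an mRNA level is only part of their state.

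Intensities were the background-subtracted values of the scanner software, and ratios between arrays were taken after division by the 75th percentile of each array, namely 589 (MSCs), 774 (COS1NR) and 994 (MFH1NR). Intensities below are printed before this division. A probe was taken as measured where the software called it well above background, and the lowest such intensity was 17.9, 29.4 and 30.1 in MSCs, COS1NR and MFH1NR. The sarcoma arrays shared a slide and a scan while the MSC array lay on another slide, so the slide and the cell type cannot be told apart wherever MSCs are compared. Both comparisons with MSCs also share the MSC array. The spread of replicate spots was taken over probes printed 10 times and well above background. Its median SD was 0.0577, 0.0481 and 0.0470 in log2 (MSCs, COS1NR and MFH1NR). For the probes of low intensity among them it was 0.141, 0.129 and 0.124. Where a gene had a second probe, its log2 ratio to MSCs was off by 0.28 (median over genes) for COS1NR and by 0.31 for MFH1NR. Macrophage markers were well above background for 13 of 13 genes in MSCs, 7 in COS1NR and 6 in MFH1NR, at summed scaled intensities of 174, 9.60 and 4.74. The MSC surface markers Nt5e and Cd44 were measured on all 3 arrays, while Eng was dim (not well above background) in both sarcomas and Thy1 in COS1NR. Of 5 osteoblast markers, all were measured in MFH1NR and all but the osteoblast factor Sp7 in MSCs and COS1NR. Their summed scaled intensities were 153 in MFH1NR, 75.5 in MSCs and 30.8 in COS1NR, mostly from Spp1. Relative to MSCs, Alpl, Bglap and Ibsp were lower in MFH1NR (log2 ratios of -0.84, -2.44 and -7.43). Spp1 (1.29) and Sp7 (dim in MSCs) were higher there. All 5 fibroblast markers were measured in each cell type, and their summed scaled intensity was lower in the sarcomas (1248 in MSCs against 189 in COS1NR and 314 in MFH1NR).

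Relative to MSCs, the members did not move as a block. In COS1NR 1 of 9 members was higher by 2-fold or more (Bid) and 2 were lower by as much (Bcl2 and Bcl2a1), where 21.7% of all 10010 genes used were higher and 22.3% lower by this threshold. In MFH1NR none was at least 2-fold higher and 4 were lower (Mcl1, Bcl2a1, Bid and Bbc3), against 20.8% of all genes higher and 23.2% lower. Without scaling and with spike-in scaling 2 members were lower in MFH1NR, against 15.4% and 17.3% of all genes. MFH1NR differed from COS1NR by at least 2-fold higher Bcl2 and lower Mcl1, Bid and Bbc3, where 13.9% of all genes were higher and 16.0% lower. The median log2 ratio of the members was -0.07 in COS1NR (0.33 without scaling), where that of all genes was 0.11, and -0.96 in MFH1NR (-0.21 without scaling and -0.45 with spike-in scaling), where that of all genes was 0.01. It was -0.78 between MFH1NR and COS1NR (0.00924 with spike-in scaling), beside -0.11 for all genes. Bcl2a1 was the member at least 2-fold lower in both sarcomas, as were 14.6% of all genes, and no member was higher in both.

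**Figure D1:**
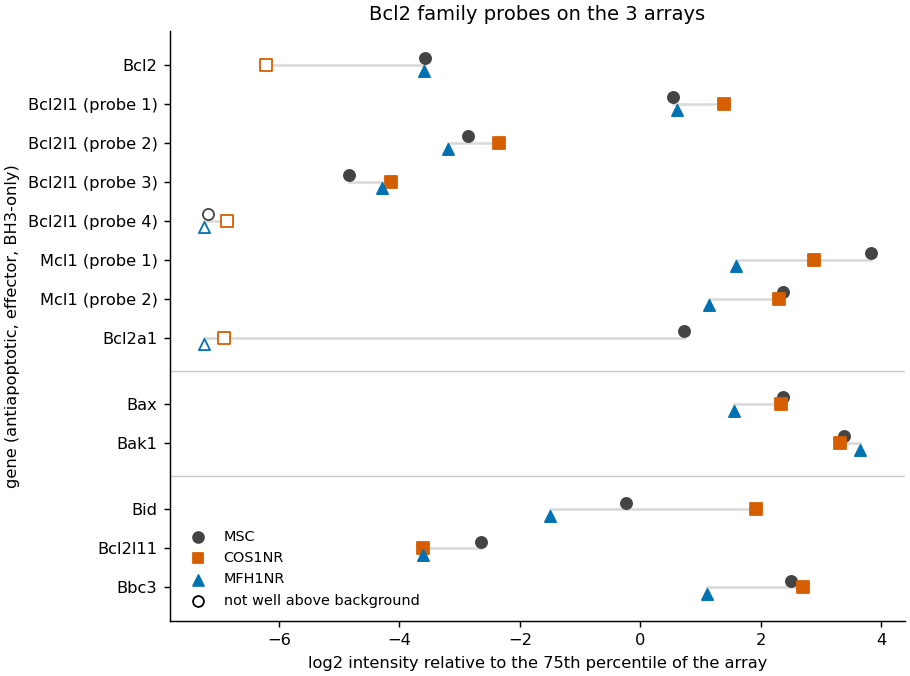
Scaled intensity of each probe of the 9 Bcl2 family genes in MSCs, COS1NR and MFH1NR (1 array each; horizontal axis, log2 of the intensity relative to the 75th percentile of the array). Open symbols were not well above background. Points are compared within a probe and not between probes. The Bcl2a1 point of MSCs stands far above those of both sarcomas, and the Bid point of COS1NR stands above those of the other cell types.

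**Figure D2:**
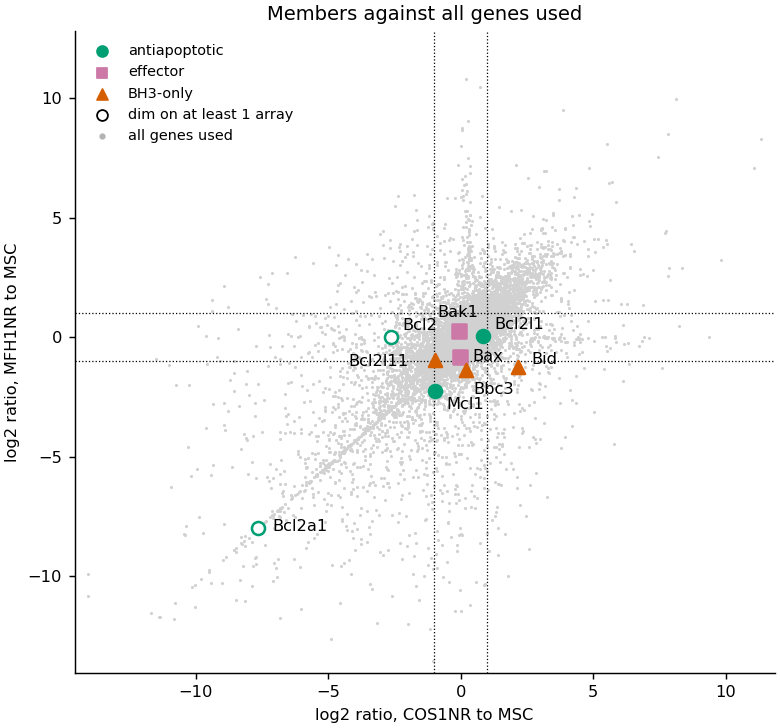
Log2 ratio of COS1NR to MSCs (horizontal axis) against log2 ratio of MFH1NR to MSCs (vertical axis) for all genes used, with the 9 Bcl2 family genes labeled by role, open where dim on at least 1 array. Dotted lines mark 2-fold. Both axes share the MSC array. Bid lies to the right of and below the center, at 2.17 and -1.26, and Bcl2a1 lies low on both axes.

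Among the antiapoptotic members, Bcl2a1 differed most between MSCs and the sarcomas. This short-lived Bcl2 homolog is a known NF-kB target and is abundant in leukocytes of the myeloid lineage. Its intensity was 974 in MSCs against 6.40 in COS1NR and 6.52 in MFH1NR. It was well above background in MSCs and in neither of the sarcomas, and 5.87% of all genes used were measured in MSCs only, whatever their level. As bounds, COS1NR lay at least 43.5-fold and MFH1NR at least 54.7-fold below MSCs, and the sarcomas could not be ordered. Without scaling these bounds were 33.2-fold and 32.4-fold. With normexp the log2 ratios were -4.38 and -4.78, which is less than the bounds and still far past 2-fold. Macrophage markers were also lower in both sarcomas, and the measured osteoclast markers were lower by unequal amounts. Of the macrophage markers, Ptprc, Itgam, Adgre1, Lyz2, C1qa and Spi1 were measured in MSCs and dim in both sarcomas. Aif1 was dim in MFH1NR only. The others were measured on all arrays, and the smallest drop in COS1NR was that of Cd68 (log2 ratio of -1.58). Of 4 osteoclast markers 3 were measured on each array, and their summed scaled intensity was 71.4 in MSCs against 2.65 in COS1NR and 7.40 in MFH1NR, with Calcr dim throughout. The log2 ratios to MSCs in COS1NR and MFH1NR were -8.31 and -10.2 for Acp5. They were -8.69 and -1.79 for Ctsk, and -0.92 and -5.49 for Mmp9. The part of such cells in the Bcl2a1 signal was not tested, and in bulk RNA fewer cells of a type and less RNA per cell cannot be told apart.

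The promoter of Bcl2a1 is shown because this gene was measured in MSCs and in neither of the sarcomas. It covers the 250 bases before and 50 bases after the gene start in the RefSeq annotation of GRCr8 (chr8:98596556-98596855, plus strand), 5′ to 3′, with the letters of an NF-kB motif (GGG, any 5 bases, then CC, on both strands) in capitals:
Bcl2a1: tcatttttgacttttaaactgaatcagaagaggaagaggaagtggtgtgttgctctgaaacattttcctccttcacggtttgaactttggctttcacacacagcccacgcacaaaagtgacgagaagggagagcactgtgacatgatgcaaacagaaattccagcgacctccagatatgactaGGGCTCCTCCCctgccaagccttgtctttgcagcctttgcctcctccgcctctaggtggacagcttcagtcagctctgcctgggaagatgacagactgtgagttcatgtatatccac
The capitals hold 2 overlapping matches, 1 on each strand, between 67 and 57 bases before the start. At least 1 match of these letters was present in 47.3% of 33469 promoters of this length. An AP-1 motif (TGANTCA) lay 231 to 225 bases before the start, which 7.33% of promoters held, and no GC box (GGGCGG) was found where 33.1% of promoters held it. A match describes letters and not a bound site.

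Bcl2 itself, the antiapoptotic protein that gave the family its name, had a low signal and was well above background in MSCs and MFH1NR but not in COS1NR. Its probe was printed 10 times. The spots lay between 41.0 and 59.6 with a median of 48.7 in MSCs. They lay between 6.75 and 13.8 with a median of 11.7 in COS1NR, where 8 spots were kept and 0 of 8 was well above background. They lay between 75.3 and 91.8 with a median of 81.8 in MFH1NR. The spots of the 3 arrays did not overlap before scaling, but after scaling MSCs and MFH1NR were alike, with a log2 ratio of -0.00 against a spread of replicate spots of 0.22. Bcl2 was at least 2.20-fold lower in COS1NR than in MSCs and at least 2.19-fold higher in MFH1NR than in COS1NR. The first of these bounds was 1.68-fold without scaling, and with another background correction (normexp) the log2 ratios were -0.92 for COS1NR to MSCs and 0.65 for MFH1NR to COS1NR, both short of 2-fold. A pair of COS1NR spots called outliers by the software, at 22.7 and 32.3, was left out.

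**Figure D3:**
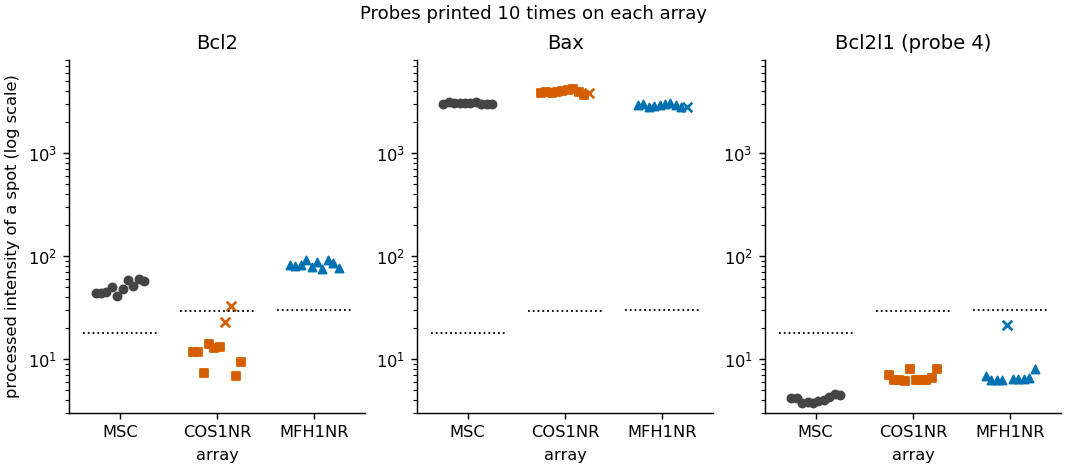
Intensity of every replicate spot of the probes for Bcl2, Bax and Bcl2l1 (probe 4), each printed 10 times per array (log axis, before scaling between arrays). Crosses mark spots that the software called outliers, and dotted lines the lowest intensity well above background on each array. Bcl2 spots kept in COS1NR lie between 6.75 and 13.8, below those of MSCs and MFH1NR, Bax spots lie close together on each array, and all Bcl2l1 spots lie under the dotted lines.

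Bcl2l1 was read by 4 probes, of which 1 was not well above background on any array (4.09, 6.65 and 6.56 in MSCs, COS1NR and MFH1NR). Its brightest probe read 863 in MSCs, 2037 in COS1NR and 1521 in MFH1NR, or 1.80-fold and 1.04-fold the MSC level after scaling. The second probe gave 80.8, 151 and 108, with ratios of 1.43 and 0.795. The third gave 20.5, 43.7 and 50.9, with ratios of 1.62 and 1.47. COS1NR was thus above MSCs by all 3 measured probes and below 2-fold by each, whereas in MFH1NR the probes lay on both sides of the MSC level. Other scalings took COS1NR past 2-fold, with a log2 ratio of 1.01 by the brightest probe under median scaling, and ratios of 2.36 and 2.13 by the brightest and the third probe without scaling. Without scaling all 3 measured probes also lay above MSCs in MFH1NR, with ratios of 1.76, 1.34 and 2.47.

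Mcl1, a survival factor with very fast turnover, was lowest in MFH1NR. Its brighter probe read 8404 in MSCs against 5685 in COS1NR and 3009 in MFH1NR. The ratio to MSCs was 0.212 in MFH1NR and 0.515 in COS1NR, just inside the 2-fold threshold. The other probe gave 3049, 3808 and 2201, with ratios of 0.428 in MFH1NR and 0.951 in COS1NR. Both probes therefore put MFH1NR more than 2-fold below MSCs after scaling and more than 2-fold below COS1NR (ratios of 0.412 and 0.450), but their log2 ratios to MSCs differed in both sarcomas by more than the median gap between probes of a gene. Without scaling the second probe was -0.47 in MFH1NR and 0.32 in COS1NR on the log2 scale relative to MSCs. With spike-in scaling the brighter probe of COS1NR was at -1.23, past 2-fold. Scaled by spike-ins, the log2 ratio of MFH1NR to COS1NR by the brighter probe was -0.49. Without scaling it was -0.92 by the brighter and -0.79 by the other probe, both short of 2-fold. The genes nearest to Mcl1 over the 2 log2 ratios to MSCs, among 7932 genes measured on all arrays, were Tpt1, Zfp36l1 and Ebf1, at distances of 0.0507, 0.0705 and 0.0784.

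The effectors Bax and Bak1, which form the pores in the outer membrane, were well above background on every array and neither passed 2-fold in any comparison after 75th percentile scaling. Bax was also printed 10 times. Its spots ranged from 3018 to 3158 in MSCs, from 3678 to 4157 in COS1NR and from 2802 to 3044 in MFH1NR, with means of 3059, 3927 and 2920. After scaling, Bax in COS1NR was 0.977-fold the MSC level, a log2 ratio of -0.03 that is within the spread of replicate spots of 0.06. That log2 ratio was 0.36 without scaling and -0.31 with spike-in scaling, both beyond that spread. Bax in MFH1NR was 0.566-fold the MSC level, a log2 ratio of -0.82 against a spread of spots of 0.05. That spread is technical and covers no cultures. Without scaling the ratio was 0.955, and with spike-in scaling the log2 ratio of MFH1NR to COS1NR moved from -0.79 to 0.00319. Bak1 read 6174 in MSCs, 7749 in COS1NR and 12465 in MFH1NR. It was highest in MFH1NR, by 1.20-fold over MSCs and 1.25-fold over COS1NR after scaling, and 2.02-fold over MSCs without it. With spike-in scaling its log2 ratio of MFH1NR to COS1NR was 1.12, which is past 2-fold.

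Among the BH3-only members, Bid lay past 2-fold on opposite sides of MSCs in the sarcomas. Bid links death receptors to mitochondria once caspase-8 has cleaved it. The probe read 498 in MSCs, 2940 in COS1NR (software error 294) and 351 in MFH1NR (software error 35.9). COS1NR was the highest and MFH1NR the lowest. Bid was 4.49-fold higher in COS1NR and 2.40-fold lower in MFH1NR than in MSCs, and 10.8-fold lower in MFH1NR than in COS1NR, on the same slide. Of all genes used, 164 (1.64%) passed 2-fold upward in COS1NR and downward in MFH1NR. The log2 ratio to MSCs stayed between 1.89 and 2.56 in COS1NR under every alternative computed for it. In MFH1NR it was -0.51 without scaling and -0.74 with spike-in scaling, both short of 2-fold. A single probe read Bid.

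The promoter of Bid is shown because Bid differed by far more than 2-fold between the sarcoma lines under every alternative. It covers the same window in RefSeq on GRCr8 (chr4:155808270-155808569, minus strand), 5′ to 3′ of the gene, with GC boxes (GGGCGG, both strands) in capitals:
Bid: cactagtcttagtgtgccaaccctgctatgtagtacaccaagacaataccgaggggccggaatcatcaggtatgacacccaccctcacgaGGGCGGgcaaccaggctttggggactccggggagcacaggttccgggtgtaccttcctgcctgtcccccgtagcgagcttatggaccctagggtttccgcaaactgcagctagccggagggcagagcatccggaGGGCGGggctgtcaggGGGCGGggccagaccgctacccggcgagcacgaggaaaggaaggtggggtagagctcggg
It held 3 GC boxes, starting 160, 26 and 10 bases before the gene start, and its GC content was 63.3% where the median over all promoters was 51.7%. The Bcl2a1 promoter had a GC content of 48.7%. The letters of the NF-kB motif also occurred at the start of Bid, overlapping the GC box nearest to it.

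Bbc3 encodes Puma, a BH3-only protein that binds all antiapoptotic members. The probe read 3327 in MSCs, 5032 in COS1NR and 2141 in MFH1NR. MFH1NR had the lowest value, at 0.381-fold the MSC level and 3.02-fold below COS1NR, while COS1NR was at 1.15-fold the MSC level. The log2 ratio of MFH1NR to MSCs was -1.39, and it was -0.64 without scaling and -0.87 with spike-in scaling. Spike-in scaling also took MFH1NR against COS1NR below 2-fold, to -0.80. Bcl2l11 encodes Bim, which binds the same partners and can also activate the effectors. The probe read 93.9 in MSCs, 63.5 in COS1NR and 81.2 in MFH1NR. After scaling it was 0.515-fold and 0.513-fold the MSC level, so both sarcomas lay just inside the 2-fold threshold and did not differ from each other beyond the software error of the spots (ratio 0.996). Spike-in scaling moved COS1NR past the threshold (log2 ratio of -1.23) and set MFH1NR above COS1NR by 0.79 in log2, and without scaling MFH1NR was at -0.21. The genes nearest to Bcl2l11 in the same measure were Txndc11, RT1-CE1 and Slc25a29, at distances of 0.0179, 0.0236 and 0.0239. As many as 179 genes lay within the difference between probes of a gene, so these 3 do not stand apart.

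**Figure D4:**
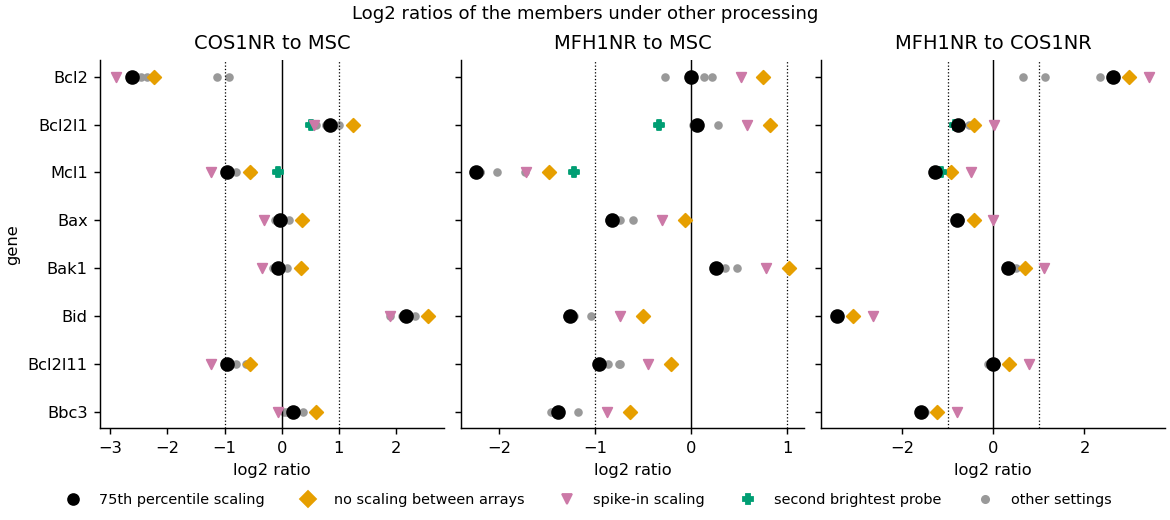
Log2 ratio of each Bcl2 family gene other than Bcl2a1 under the 75th percentile scaling (black) and the alternatives, for each pair of cell types. Dotted lines mark 2-fold. Bid in COS1NR against MSCs and Mcl1 in MFH1NR against MSCs stay past 2-fold throughout, and Bid and Bbc3 in MFH1NR against MSCs cross it.

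Differences between members within the same pair of arrays do not depend on the scaling factor. Bax relative to Bcl2 was at least 2.15-fold higher in COS1NR than in MSCs. In MFH1NR it was 0.567-fold the MSC value, so the balance lay on opposite sides of MSCs in the sarcomas. With normexp the COS1NR value was 0.93 on the log2 scale and fell short of 2-fold. Other pairs were chosen after their values were seen. Bcl2l1 relative to Mcl1 was higher than in MSCs in both sarcomas by all 6 pairs of measured probes, from 1.5-fold to 3.49-fold in COS1NR and from 1.86-fold to 6.91-fold in MFH1NR. Bak1 relative to Bax was 2.11-fold the MSC value in MFH1NR and 0.978-fold in COS1NR. Bid relative to Bax was 4.59-fold the MSC value in COS1NR and 0.737-fold in MFH1NR.

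The wider apoptosis list held 45 genes, of which 41 had a probe and 38 were used. Relative to MSCs, 10 of 38 (26.3%) were at least 2-fold higher and 7 (18.4%) lower in COS1NR, and 8 (21.1%) were higher and 3 (7.89%) lower in MFH1NR. Over all genes these shares were 21.7% and 22.3% in COS1NR, and 20.8% and 23.2% in MFH1NR. The median log2 ratio was 0.33 in COS1NR and 0.11 in MFH1NR, beside 0.11 and 0.01 over all genes. Between MFH1NR and COS1NR 5 (13.2%) were higher and 2 (5.26%) lower, where 13.9% and 16.0% of all genes were. The counts depended on the scaling. With spike-in scaling 13 were higher and 1 lower in MFH1NR than in COS1NR, beside 34.9% and 8.42% of all genes. Against MSCs 14 were then higher in MFH1NR, beside 34.2% of all genes. Without scaling these were 15 and 41.6%. A total of 6 genes (15.8%) were higher in both sarcomas, as were 12.2% of all genes, and 3 (7.89%) were lower in both, as were 14.6% of all genes.

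Higher in both were the Bcl2 homolog Bcl2l10, the BH3-only gene Bmf, cytochrome c (Cycs), the initiator caspase Casp2, survivin (Birc5) and the cell cycle factor E2f1. Bcl2l10 read 64.4 in MSCs, 305 in COS1NR and 870 in MFH1NR, or 3.61-fold and 8.01-fold the MSC level. Bmf had 56.5, 215 and 215, with log2 ratios of 1.53 and 1.18. Cycs had 14734, 47844 and 63093, with log2 ratios of 1.31 and 1.34. These 3 genes were thus highest in MFH1NR or level between the sarcomas before scaling. Casp2 had 1815, 7554 and 8428, with log2 ratios of 1.66 and 1.46. Birc5, an inhibitor of apoptosis protein made in dividing cells, had 1620, 13766 and 20679, with log2 ratios of 2.69 and 2.92. E2f1 had 1115, 10633 and 10356, with log2 ratios of 2.86 and 2.46. The 4 measured proliferation markers were also higher in the sarcomas, summing to scaled intensities of 23.1, 114 and 84.0 in MSCs, COS1NR and MFH1NR, and their part in Birc5 and E2f1 was not tested.

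Lower in both were Birc3, Cflar and Bcl2l15. Birc3, the NF-kB-induced inhibitor cIAP2, read 4578 in MSCs against 307 in COS1NR and 687 in MFH1NR, with log2 ratios of -4.29 and -3.49. Cflar, which blocks caspase-8 at death receptors, had 1482, 339 and 1242, with log2 ratios of -2.52 and -1.01, so MFH1NR lay at the 2-fold threshold, and without scaling it was at -0.26. Bcl2l15 had 46.7 in MSCs and was not well above background in the sarcomas, at least 2.09-fold and 2.62-fold lower. Without scaling these bounds were 1.59-fold and 1.55-fold, short of 2-fold. Birc3 and Cflar differed in the same direction as Bcl2a1 and as the macrophage markers, whose part was not tested. Casp12, named after its values were seen, read 1088 in MSCs against 65.8 in COS1NR and 1879 in MFH1NR, with a log2 ratio of -4.44 in COS1NR.

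**Figure D5:**
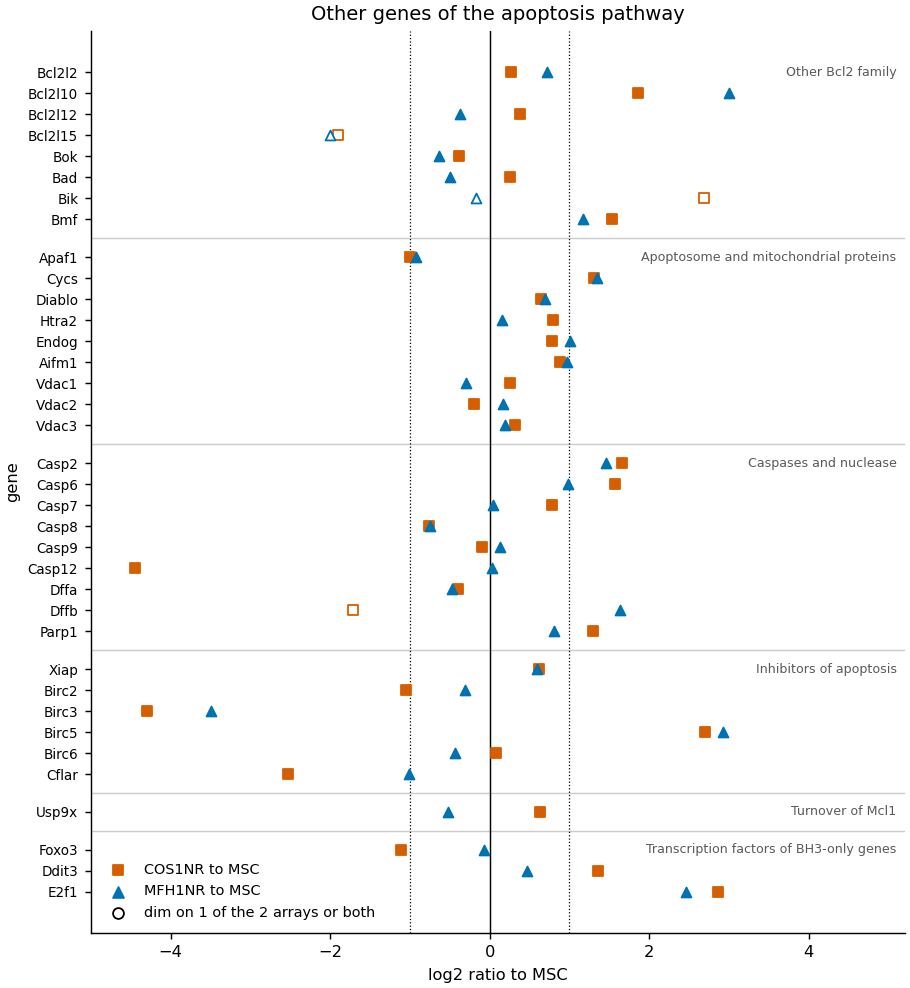
Log2 ratio to MSCs of genes used from the wider apoptosis list, in COS1NR and MFH1NR, grouped by role. Open symbols were not well above background on at least 1 array of the pair. Birc5 and E2f1 lie at the high end in both sarcomas, Birc3 lies at the low end in both, and Casp12 lies low in COS1NR while near 0 in MFH1NR.

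Bad, Bok, Apaf1, Casp9, Xiap and Bik were followed whatever their values. Apart from Bik, which had no ratio measured on both sides, they stayed within 2-fold of MSCs in both sarcomas. This holds by their brightest probe after 75th percentile scaling. The BH3-only gene Bad had log2 ratios of 0.25 in COS1NR and -0.49 in MFH1NR. The effector homolog Bok had -0.39 and -0.64. The apoptosome scaffold Apaf1 had -0.998 and -0.93, both just inside the threshold, and -1.27 in COS1NR with spike-in scaling. Casp9, the caspase that Apaf1 activates, had -0.10 and 0.13. Xiap, which inhibits caspases, had 0.61 and 0.59, and without scaling its ratios were 2.01 and 2.54, past 2-fold. Bik, a BH3-only gene, was measured only in COS1NR, reading 4.18 in MSCs against 35.3 in COS1NR and 6.24 in MFH1NR, and was there at least 1.5-fold higher than in MSCs.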

How the data were processed

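Per the file headers, the authors made the deposited intensities with Agilent Feature Extraction 10.5.1.1 (the labels name 9.1), which subtracts background and detrends each array without scaling between arrays. The series table held the same values on 3 of 3 arrays. Control spots and outlier spots (187 to 217 per array) were left out, spots of a probe were averaged as log2 and divided by the array's 75th percentile. Probes were named through RefSeq accessions and a GRCr8 gene table (16815 of 20503 probes). The brightest probe stood for a gene, used if well above background on at least 1 array. A dim side gave a bound, from the higher of its own intensity and the array's lowest measured one. The design was annotated to another build, so only promoters have coordinates.

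The members, the wider list and the marker lists were chosen with earlier results of these data known. Named are all members, genes of the wider list past 2-fold in both sarcomas in the same direction, further genes of it set by name (some are not reported here, in the text or the plot), and the 3 nearest genes of 2 members (those with the mean log2 ratio to MSCs largest in size, of either sign, among members measured on all arrays). Markers of T cells (4, 2 and 1 of 6 in MSCs, COS1NR and MFH1NR), B cells (0 of 2), neutrophils (1, 2 and 1 of 6) and endothelium (2, 2 and 1 of 4) were also counted. No test was made, since 1 array per cell type allows none. Counting was tested on simulated data. Tools were limma 3.58.1 in R 4.3.3 (normexp, offset 50), and numpy 2.4.6, pandas 2.3.3 and matplotlib 3.10.9 in Python 3.11.15. Alternatives numbered 11 planned and 2 added.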

Additional observations from a re-analysis of the deposited data

Results flagged for a closer look

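Bid is singled out because the sarcomas lay on opposite sides of MSCs: its log2 ratio to MSCs was 2.17 in COS1NR and -1.26 in MFH1NR. With 1 array per cell type the difference was not tested.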

How the results depend on the processing

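Of the counts, medians and relative values, 184 stayed within their limits under the alternatives and 41 moved. The members' median changed sign in COS1NR against MSCs without scaling and with median scaling (0.096), and between the sarcomas with spike-in scaling. Scaling by 7 spike-in probes and keeping outlier spots were chosen after seeing the data. Without scaling, 2 members were at least 2-fold higher in COS1NR than in MSCs, and in MFH1NR 1 was higher and 2 lower. On the wider list 17 were then higher in COS1NR and 15 in MFH1NR, and 1 was lower in MFH1NR than in COS1NR. Of all genes, 32.9% were then higher in COS1NR, and 41.6% higher and 15.4% lower in MFH1NR. In MFH1NR 11.3% were then lower than in COS1NR. The members' medians were 0.33, -0.21 and -0.42 (COS1NR and MFH1NR against MSCs, MFH1NR against COS1NR). With median scaling 2 members were higher in COS1NR, beside 25.9% of all genes. With normexp 1 member was lower in COS1NR and 0 were higher in MFH1NR than in COS1NR. Of all genes, 17.3% were then lower in COS1NR, and 9.12% higher and 11.9% lower in MFH1NR than in COS1NR. The wider list then had 3 lower in COS1NR, and 3 higher and 1 lower in MFH1NR than in COS1NR, and Bax relative to Bcl2 was 0.93, -0.48 and -1.40. With the mean of all probes the median of MFH1NR against COS1NR was -0.54. With probes measured on all arrays, 0 members were lower in COS1NR, 0 were higher and 1 gene of the wider list was lower in MFH1NR than in COS1NR, and Bcl2 gave no value. With dim values raised to the limit, 1 gene of the wider list was lower in MFH1NR than in COS1NR, and Bax relative to Bcl2 was 1.11 in COS1NR and -1.92 between the sarcomas. At 3-fold, 2 members were lower in MFH1NR, and the wider list had 5 higher in COS1NR and 4 in MFH1NR, and 2 higher and 1 lower in MFH1NR than in COS1NR. With spike-in scaling, 4 members were lower in COS1NR (Bcl2, Bcl2a1, Mcl1 and Bcl2l11) and 2 in MFH1NR, and 2 were higher and 1 lower in MFH1NR than in COS1NR. Of all genes, 26.9% were then lower in COS1NR, and 34.2% higher and 17.3% lower in MFH1NR. Between MFH1NR and COS1NR 34.9% were higher and 8.42% lower. The wider list then had 14 higher in MFH1NR, and 13 higher and 1 lower in MFH1NR than in COS1NR, with member medians of -0.45 in MFH1NR and 0.00924 between the sarcomas. With outlier spots kept, Bax relative to Bcl2 was 2.31 in COS1NR and -3.14 between the sarcomas, instead of 2.59 and -3.41, and all 4 values use the dim Bcl2 probe of COS1NR as processed and are no measurements beyond the bounds of 1.11 and -1.92.

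The cause of these moves was not tested, apart from the scaling itself. The median of all genes was 0.51, 0.77 and 0.25 without scaling and -0.16, 0.53 and 0.68 with spike-in scaling, and the share of higher among all genes past 2-fold, 49.3%, 47.3% and 46.6% as processed, became 65.3%, 72.9% and 64.8%, and 37.1%, 66.4% and 80.6%. Relative to the median of all genes, the members' median was -0.18, -0.98 and -0.67. No paired analysis was possible because each cell type had 1 array. Signal near background limits Bcl2, Bcl2a1 and the fourth Bcl2l1 probe to bounds or no value.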
